A study of Homo sapiens with 6 samples.

Results

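The 8 genes described here encode proteins that prepare and trigger the start of DNA replication at the passage from G1 to S phase: CDC6, CDT1, GMNN, CCNE1, CCNE2, CDK2, CDC7 and DBF4. They were taken by gene symbol and are 8 of the 26255 genes listed in each library. CDC6, CDT1 and CCNE1 were put on the list because they were higher with YM155 in these same libraries while most replication genes were lower, so their difference between treatments is a selection and is given with no test. GMNN, CCNE2, CDK2, CDC7 and DBF4 are their partners in the same steps, and the choice of genes did not name the direction in which they moved. They are replication genes too, so falls among them are not independent of that choice. All 8 passed the filter on low values, which left 12035 genes for testing.

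The libraries came from HT29, an established human colorectal adenocarcinoma line. The YM155 group was exposed for 24 h to YM155, a small-molecule inhibitor of survivin (BIRC5) expression, and the DMSO group received the solvent, for a time that the labels do not give separately. Each group had 3 libraries, the labels name no other agent or genetic change in either group, and the dose is not given in the sources used here. The sample titles spell the compound YM115 where the treatment label has YM155. The labels speak of triplicates and not of separate cultures, so the p-values speak only to the variation among these libraries, and that variation may be technical.

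Replication origins are prepared in G1, when the origin recognition complex marks the DNA and CDC6 and CDT1 load the ring-shaped MCM2-7 helicase onto it in an inactive form, a step called licensing. Geminin, the product of GMNN, binds CDT1 after S phase has begun and keeps origins from being licensed again. Loaded helicases are switched on by a pair of kinases: CDK2 with cyclin E, which CCNE1 and CCNE2 encode, and CDC7 with its activating subunit DBF4. In the gut these genes are used by the dividing cells of the crypt, and colorectal tumour lines use them in every division. Many of the proteins are controlled by timed destruction, and only their transcripts were measured here.

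Values are FPKM, fragments per kilobase of transcript after correction for library size, which allows genes to be compared per length. The FPKM of all genes summed to 678699 to 696067 in YM155 libraries and to 538478 to 563296 in DMSO libraries. Read totals are unknown. The relative worth of 1 read was estimated as the most common ratio of a gene's low value to its low value in DMSO replicate 1. It was 1.52 to 1.78 in YM155 libraries, against 0.997 and 1.11 in DMSO replicates 2 and 3. By this estimate scarce transcripts were measured with fewer reads in YM155 libraries. Of 9 markers of colorectal epithelium, 7 reached 1 FPKM in every YM155 library and 8 in every DMSO library, with CDX1 at no more than 0.245 FPKM. Their summed level was 7937 to 8622 FPKM with YM155 and 4423 to 4630 FPKM with DMSO, and its part in the results below was not tested. Most of that sum was KRT8 and KRT18, and the markers went both ways. EPCAM, CDH1, KRT8, KRT18, KRT19 and KRT20 were higher in every YM155 library than in any DMSO library. KRT20 averaged 805 ± 51.9 FPKM with YM155 and 120.1 ± 1.36 FPKM with DMSO. VIL1 and CDX2 were lower, and CDX1 overlapped between groups. VIL1 averaged 22.3 ± 2.63 FPKM with YM155 and 38.6 ± 0.706 FPKM with DMSO. CDX2 averaged 0.839 ± 0.144 FPKM with YM155 and 3.20 ± 0.456 FPKM with DMSO. None of the 5 fibroblast, 5 leukocyte or 4 endothelial markers reached 1 FPKM in every library of a group. The summed fibroblast markers were 0.103 to 0.135 FPKM with YM155 and 0.256 to 0.344 FPKM with DMSO, the leukocyte markers 0.391 to 0.768 and 0.773 to 1.17 FPKM with YM155 and DMSO, and the endothelial markers 0.138 to 0.250 and 0.0495 to 0.144 FPKM with YM155 and DMSO. DCN was at 0 in all libraries.

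The DNA just upstream of the 4 genes that were higher with YM155 is shown first, because E2F factors, whose sites were spelled as given below, and NF-Y, which binds CCAAT, are textbook regulators of replication genes. Each line holds the 250 bases before the RefSeq start in assembly GRCh38.p14, read 5′ to 3′ on the plus strand, which is the strand of all 4 genes. The windows are chr17:40287629-40287878 for CDC6, chr16:88803539-88803788 for CDT1, chr19:29811741-29811990 for CCNE1 and chr7:87876243-87876492 for DBF4. Capitals mark E2F and NF-Y matches on either strand.
CDC6: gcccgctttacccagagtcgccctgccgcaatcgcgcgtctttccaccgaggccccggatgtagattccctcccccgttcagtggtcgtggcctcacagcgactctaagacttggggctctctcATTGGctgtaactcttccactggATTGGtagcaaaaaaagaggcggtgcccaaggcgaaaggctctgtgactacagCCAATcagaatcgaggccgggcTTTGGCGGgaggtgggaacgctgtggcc
CDT1: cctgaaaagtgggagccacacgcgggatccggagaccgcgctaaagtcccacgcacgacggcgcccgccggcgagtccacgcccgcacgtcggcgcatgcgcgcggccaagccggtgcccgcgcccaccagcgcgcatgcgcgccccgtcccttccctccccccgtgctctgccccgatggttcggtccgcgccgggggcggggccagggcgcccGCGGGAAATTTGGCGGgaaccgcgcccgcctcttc
CCNE1: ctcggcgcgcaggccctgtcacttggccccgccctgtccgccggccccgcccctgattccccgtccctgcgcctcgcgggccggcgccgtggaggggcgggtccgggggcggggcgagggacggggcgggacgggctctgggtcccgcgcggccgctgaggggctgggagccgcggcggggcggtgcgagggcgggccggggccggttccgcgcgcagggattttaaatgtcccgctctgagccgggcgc
DBF4: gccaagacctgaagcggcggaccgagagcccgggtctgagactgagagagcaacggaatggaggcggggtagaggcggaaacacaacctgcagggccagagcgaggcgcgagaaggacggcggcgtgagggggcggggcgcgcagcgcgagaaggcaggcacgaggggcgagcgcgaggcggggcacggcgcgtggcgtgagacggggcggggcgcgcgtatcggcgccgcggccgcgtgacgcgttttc

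The E2F spellings searched on both strands were TTTCCCGC, TTTCGCGC, TTTGCCGC and TTTGGCGC, and 2.79% of 35116 promoters in the table held one of them in this window. A wider search that also took G as the last base was added after the sequences had been seen, includes every match of the first, and found a match in 5.23% of promoters. CDC6 held TTTGGCGG, a match of the wider search only, at position -28 counted from the start, and NF-Y letters (CCAAT or its reverse ATTGG) at -126, -103 and -50. NF-Y letters stood in 32% of all promoters. CDT1 held an E2F match on the minus strand at -35, printed as GCGGGAAA, directly followed by TTTGGCGG at -27. The windows of CCNE1 and DBF4 held no E2F or NF-Y match, which says only that these letters are not in these 250 bases.

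Of the genes that were lower with YM155, GMNN and CDC7 have 2 RefSeq starts each, and E2F matches lay before the second start of both, so only the 30 bases around each match are shown, with the match in capitals.
GMNN at chr6:24775322-24775351: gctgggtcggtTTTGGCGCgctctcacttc
CDC7 at chr1:91501033-91501062: gtgcagttcctTTTCCCGCcccccttcgga
CDC7 at chr1:91501067-91501096: tccgacctgcgGCGGGAAAgtcgcgcgcct

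E2F letters thus stood before genes of both directions, at -80 in GMNN and at -68 and -34 in CDC7. GMNN also held NF-Y letters at -95 and -51 of its second start. The CHR element (TTTGAA or TTCGAA, in 14.3% of promoters) and the ATF4-CHOP element (TGATGNAA, in 3.14%) were found in none of the 8 windows of the 6 genes matched. An NRF2 element (TGACNNNGC, in 10.9% of promoters) stood at -238 in CCNE1 and at -79 of the first GMNN start. G and C made up 59.2% and 67.2% of the first and second GMNN windows and 56% and 59.2% of the first and second CDC7 windows. They made up 60% of the CDC6 window, 76.4% of the CDT1 window, 81.2% of the CCNE1 window and 73.6% of the DBF4 window. The median was 58% over all promoters in the table. CDK2 and CCNE2 have no entry there.

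Among the helicase loaders, CDC6 stood at 38.5, 41.9 and 42.8 FPKM in the YM155 libraries, against 16.6, 17.99 and 16.7 FPKM in the DMSO libraries. Every YM155 library was above every DMSO library. The means were 41.1 ± 2.30 FPKM with YM155 and 17.1 ± 0.766 FPKM with DMSO (SD, n = 3 each), a ratio of 2.40, and the log2 fold change, here and below of FPKM + 1 and YM155 minus DMSO, was 1.22. CDC6 is the ATPase that closes the ring of the origin complex and recruits the helicase with CDT1. CDT1 stood at 17.9, 16.4 and 15.7 FPKM with YM155, against 12.04, 12.1 and 12.8 FPKM with DMSO. Its groups did not overlap, but they lay closer than those of CDC6: 16.7 ± 1.13 FPKM with YM155 and 12.3 ± 0.464 FPKM with DMSO, a ratio of 1.35 and a log2 fold change of 0.41. Among all tested genes the log2 fold change of CDC6 lay at the 88.6th percentile and that of CDT1 at the 65.99th.

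Geminin, the inhibitor of CDT1, went the other way. GMNN stood at 11.9, 11.00 and 9.63 FPKM in the YM155 libraries, against 25.7, 26.3 and 29.1 FPKM in the DMSO libraries, so every YM155 library was below every DMSO library. It averaged 10.9 ± 1.16 FPKM with YM155 and 27.03 ± 1.82 FPKM with DMSO, and fell 2.49-fold (log2 fold change -1.24 ± 0.08 SE, limma adjusted p = 6.4e-07). The ratio of CDT1 to GMNN within a library does not depend on any factor by which the whole library is scaled. Quantile normalization is not such a factor. It was 1.50, 1.49 and 1.63 with YM155, against 0.468, 0.458 and 0.442 with DMSO. CDT1 transcript thus exceeded GMNN transcript per length in all 3 YM155 libraries and was below it in all 3 DMSO libraries, a ratio 3.37-fold higher with YM155, given with no test because CDT1 was selected on its difference. Bulk RNA cannot tell fewer cells in the phases that use a gene from less of its RNA per cell, and this holds for every gene below.

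**Figure D1:**
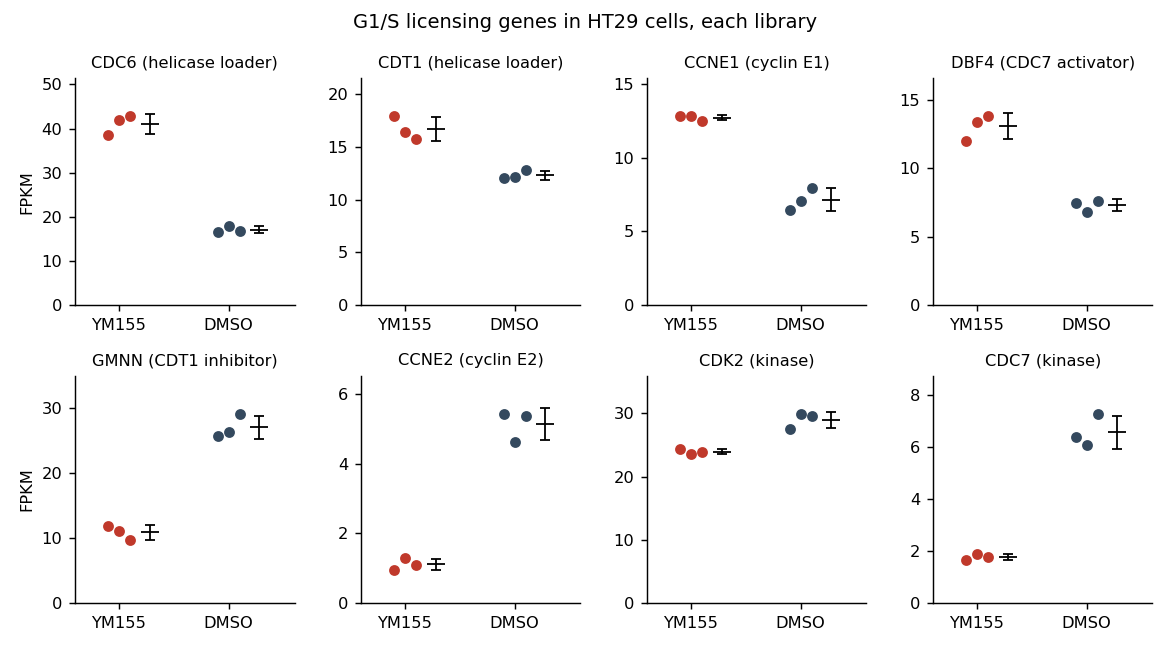
FPKM (vertical axes, each starting at 0) of the 8 G1/S licensing genes in each YM155 library (red points) and each DMSO library (dark points), with the mean and SD of each group as a bar beside the points (n = 3). CDC6, CDT1, CCNE1 and DBF4 in the top line were higher with YM155 and GMNN, CCNE2, CDK2 and CDC7 in the bottom line were lower, with no overlap of groups in any panel.

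The 2 cyclin E genes moved apart. CCNE1 stood at 12.8, 12.8 and 12.5 FPKM with YM155, against 6.45, 7.05 and 7.96 FPKM with DMSO. All YM155 libraries were above all DMSO libraries, with means of 12.7 ± 0.180 FPKM with YM155 and 7.15 ± 0.759 FPKM with DMSO, a ratio of 1.77 and a log2 fold change of 0.75, at the 77.5th percentile of tested genes. CCNE2, whose protein is the close relative of cyclin E1 and activates the same kinase, stood at 0.958, 1.28 and 1.09 FPKM with YM155, against 5.43, 4.62 and 5.37 FPKM with DMSO. Its YM155 libraries lay near the filter of 1 FPKM and all below the DMSO libraries. It averaged 1.11 ± 0.163 FPKM with YM155 and 5.14 ± 0.454 FPKM with DMSO, and fell 4.63-fold (log2 fold change -1.54 ± 0.09 SE, limma adjusted p = 3.1e-07), which the added 1 FPKM understates at such low levels. The ratio of CCNE1 to CCNE2 was 13.3, 9.95 and 11.4 with YM155, against 1.19, 1.53 and 1.48 with DMSO, 8.26-fold higher with YM155 and given with no test. The cyclin E transcript in YM155 libraries was therefore nearly all CCNE1, while in DMSO libraries both genes were close to each other per length.

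CDK2, the kinase that both cyclins activate, had the smallest fold change of the 8 genes as deposited, while under upper-quartile, common-sum and quantile scaling that of CDT1 was smaller. It stood at 24.3, 23.5 and 23.9 FPKM with YM155, against 27.5, 29.9 and 29.5 FPKM with DMSO. The groups were close but did not overlap, at 23.9 ± 0.384 FPKM with YM155 and 28.98 ± 1.28 FPKM with DMSO, a 1.21-fold fall (log2 fold change -0.27 ± 0.05 SE, limma adjusted p = 0.00071).

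The DBF4-dependent kinase, which phosphorylates the loaded MCM ring, was divided between its subunits. CDC7, the catalytic subunit, stood at 1.65, 1.88 and 1.76 FPKM with YM155, against 6.37, 6.06 and 7.27 FPKM with DMSO. Every YM155 library was below every DMSO library, and the means of 1.76 ± 0.113 FPKM with YM155 and 6.57 ± 0.627 FPKM with DMSO made a 3.73-fold fall (log2 fold change -1.45 ± 0.08 SE, limma adjusted p = 2.5e-07). DBF4, an activating subunit of CDC7, stood at 12.01, 13.4 and 13.8 FPKM with YM155, against 7.49, 6.80 and 7.60 FPKM with DMSO. All YM155 libraries lay above all DMSO libraries. DBF4 averaged 13.1 ± 0.920 FPKM with YM155 and 7.30 ± 0.430 FPKM with DMSO, and rose 1.79-fold (log2 fold change 0.76 ± 0.07 SE, limma adjusted p = 6.8e-06).

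Within libraries the ratio of CDC7 to DBF4 was 0.137, 0.140 and 0.128 with YM155, against 0.851, 0.890 and 0.957 with DMSO. The subunits were thus near parity per length with DMSO, and CDC7 was far the scarcer with YM155. The mean ratio was 0.135 ± 0.00628 with YM155 and 0.899 ± 0.0534 with DMSO, 6.65-fold lower with YM155 in 3 of 3 libraries (log2 difference -2.73, exact two-sided permutation test, p = 0.1, the smallest that 3 against 3 libraries can give). With CDC7 lower and DBF4 higher in every YM155 library, the test could give no other p, so it adds nothing to them. DBF4B, which encodes another activating subunit of CDC7, also rose, to 5.97 ± 1.00 FPKM with YM155, against 4.01 ± 0.156 FPKM with DMSO (log2 fold change 0.46 ± 0.11 SE, limma adjusted p = 0.0026), but its call ended under rescaling to a common sum (0.20, limma adjusted p = 0.1).

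**Figure D2:**
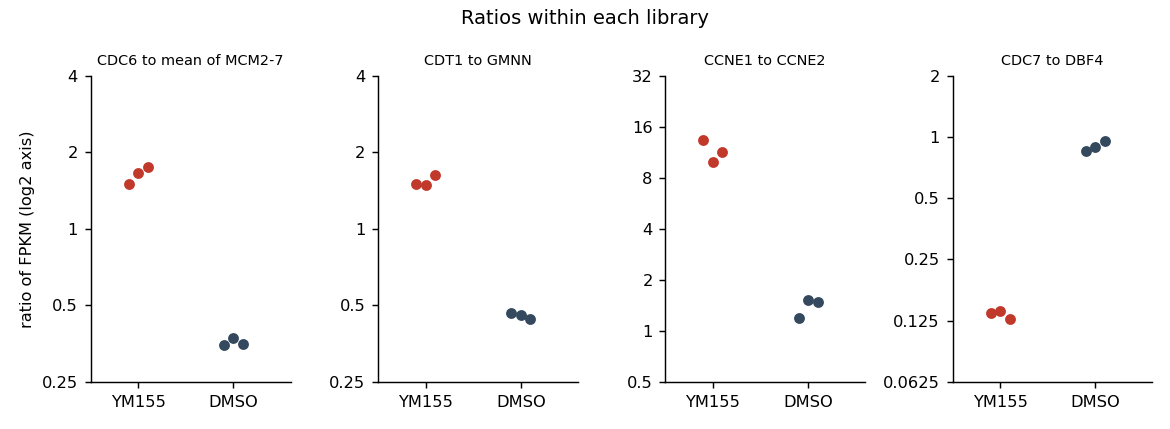
Ratio of FPKM between genes of the same library (vertical axes, log2 scale) in the 3 YM155 libraries (red) and the 3 DMSO libraries (dark), for CDC6 to the mean of MCM2 to MCM7, CDT1 to GMNN, CCNE1 to CCNE2 and CDC7 to DBF4. The first 3 ratios are higher in all YM155 libraries and the last is lower in all of them, at 0.128 to 0.140 with YM155 and 0.851 to 0.957 with DMSO.

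Of the 5 members whose direction the choice did not name, 1 rose and 4 fell, and the same 5 had groups that did not overlap. The choice rested on most replication genes being lower, so these falls and their p-values are not independent of it. Over all 12035 genes tested, 43.6% rose and 41.0% fell at a limma adjusted p under 0.05, and 44.4% had all YM155 libraries above all DMSO libraries and 41.5% all below. Of the calls, 51.5% were higher as deposited, 40.7% under upper-quartile scaling and 37.4% under rescaling to a common sum. Most genes therefore passed, and passing sets none of these members apart; the size of the change places them. The log2 fold changes of CCNE2, CDC7 and GMNN lay at the 2.97th, 3.88th and 6.75th percentile of tested genes, that of CDK2 at the 37.5th and that of DBF4 at the 77.7th.

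The order of the 8 levels per length differed between treatments. With YM155 CDC6 was highest at 41.1 FPKM, followed by CDK2, CDT1, DBF4, CCNE1, GMNN, CDC7 and, lowest, CCNE2 at 1.11 FPKM. DBF4 and CCNE1 overlapped there, and all other neighbours in the order were apart in every library. With DMSO CDK2 was highest at 28.98 FPKM, followed by GMNN, CDC6, CDT1, DBF4, CCNE1, CDC7 and CCNE2 at 5.14 FPKM. CDK2 overlapped GMNN there, DBF4 overlapped CCNE1, and CCNE1 overlapped CDC7. The levels of the 8 genes spanned a wider range with YM155 than with DMSO. CDC6, CDT1 and CCNE1 were chosen for being higher with YM155, so the new order and range partly restate that choice. The lower end with YM155, CCNE2, lay near the filter of 1 FPKM. The spread between libraries of a group, as SD over mean, was 1.42% (CCNE1) to 14.7% (CCNE2) with YM155 and 3.77% (CDT1) to 10.6% (CCNE1) with DMSO, around medians of 6.81% with YM155 and 5.39% with DMSO over tested genes.

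How the libraries are scaled bears on the smaller changes. Upper-quartile scaling, rescaling to a common sum and quantile normalization shifted the median over all tested genes by -0.22, -0.28 and -0.11. All 8 genes kept their direction under each, and the 5 tested members kept their call. CDT1 shrank most in proportion, to a log2 fold change of 0.17, 0.10 and 0.18 under these scalings in that order. CDC6 stood at 0.97, 0.90 and 0.90, CCNE1 at 0.52, 0.46 and 0.65, and DBF4 at 0.53, 0.47 and 0.65. CDK2 lay further down, at -0.51, -0.58 and -0.60. Taken relative to the median of all genes, CDT1 was at 0.38 as deposited and between 0.27 and 0.38 under the scalings.

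**Figure D3:**
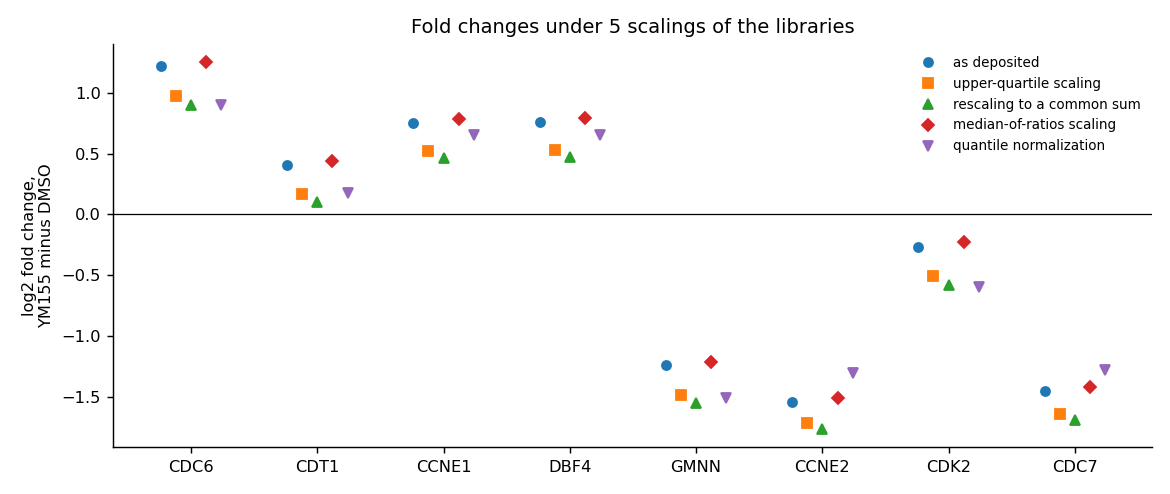
Log2 fold change, YM155 minus DMSO, of each of the 8 genes (vertical axis) with the FPKM as deposited and under 4 other scalings of the libraries (symbols). CDC6, CDT1, CCNE1 and DBF4 stay above 0 and GMNN, CCNE2, CDK2 and CDC7 stay below 0 under all 5, with CDT1 nearest to 0 at 0.10 under rescaling to a common sum.

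The genes that CDC6 and CDT1 work with are given next. CDC6, CDT1 and CCNE1 were chosen for being higher while most replication genes fell, so falls in the origin recognition, MCM2-7, helicase activation, fork and S-phase lists restate that choice and are not independent of it. Of the 6 genes of the origin recognition complex, ORC1, ORC5 and ORC6 fell, ORC2 rose, and ORC3 and ORC4 did not pass. Among all tested genes 41.0% fell and 43.6% rose. The median log2 fold change of the complex was -0.34, beside 0.02 over all tested genes. ORC5 averaged 7.45 ± 0.846 FPKM with YM155 and 12.1 ± 0.281 FPKM with DMSO (1.63-fold lower), and ORC6 averaged 7.64 ± 1.47 and 12.2 ± 0.896 FPKM with YM155 and DMSO. ORC1, the subunit whose level follows the cell cycle, averaged 4.67 ± 0.339 FPKM with YM155 and 7.28 ± 0.387 FPKM with DMSO. ORC2 was at 20.8 ± 0.545 FPKM with YM155 and 15.4 ± 0.541 FPKM with DMSO, but its call ended under rescaling to a common sum (log2 fold change 0.10, limma adjusted p = 0.14). ORC3 was at 7.62 and 8.42 FPKM and ORC4 at 11.5 and 11.9 FPKM with YM155 and DMSO, and both counted as lower under upper-quartile, common-sum and quantile scaling.

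All 6 subunits of the MCM2-7 helicase, the ring that CDC6 and CDT1 load, fell, beside 41.0% of all tested genes. Their median log2 fold change was -1.03. MCM6 fell most, to 7.13, 6.51 and 6.80 FPKM with YM155, against 31.5, 30.6 and 30.99 FPKM with DMSO. MCM3 fell 3.17-fold, MCM4 2.16-fold, MCM2 2.02-fold and MCM7 1.50-fold. MCM5 fell least, to 14.7 ± 0.236 FPKM with YM155, against 17.98 ± 0.564 FPKM with DMSO (1.22-fold, limma adjusted p = 0.00071). The 6 transcripts summed to 151 ± 3.56 FPKM with YM155 and 287 ± 3.71 FPKM with DMSO. The ratio of CDC6 to the mean of the 6 was 1.50, 1.66 and 1.75 with YM155, against 0.349, 0.372 and 0.353 with DMSO. The loader was thus more abundant per length than the average ring subunit in every YM155 library and less abundant in every DMSO library, a ratio 4.56-fold higher with YM155 and given with no test.

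**Figure D4:**
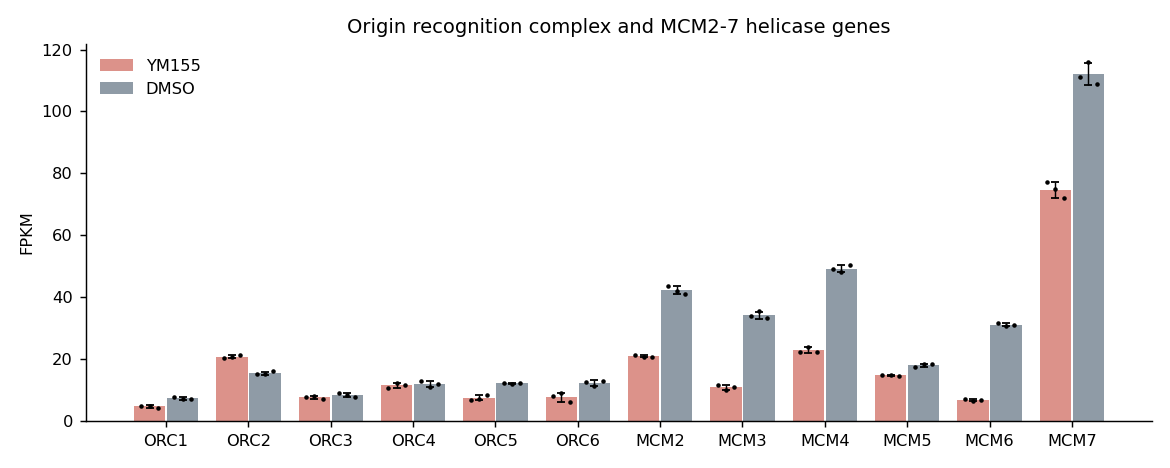
Mean FPKM (bars from 0, SD as error bars, n = 3, libraries as points) of the 6 origin recognition complex genes and the 6 MCM2-7 genes with YM155 (red, left) and DMSO (grey, right). All 6 MCM genes are lower with YM155, and ORC2 is the single gene of the 12 called higher.

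Genes that turn the loaded ring into a moving helicase fell in 9 of 11 cases and none rose, beside 41.0% and 43.6% of all tested genes. Their median log2 fold change was -0.95. The GINS subunits, which join MCM2-7 and CDC45 at the fork, were among them: GINS1 fell 4.76-fold to 2.33 ± 0.413 FPKM with YM155, against 11.1 ± 0.998 FPKM with DMSO, GINS2 fell 3.47-fold and GINS3 3.39-fold. MCM10, which helps the activated helicase start, fell 4.09-fold. TOPBP1, a scaffold protein of this step, did not pass, at 17.3 ± 1.09 FPKM with YM155 and 17.2 ± 0.271 FPKM with DMSO (limma adjusted p = 0.94), but counted as lower under upper-quartile, common-sum and quantile scaling (log2 fold changes -0.23, -0.30 and -0.25). CDC7, whose kinase acts at this same step, fell with this list, and DBF4 did not.

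Of the genes that assist or oppose licensing and the CDC7 kinase, 9 of 10 listed were tested, and 7 rose and 2 fell beside 43.6% and 41.0% of all tested genes. Their median log2 fold change was 0.46, and 4 rose under rescaling to a common sum. KAT7, an acetyltransferase that works with CDT1 at origins, stood at 33.4, 33.6 and 34.1 FPKM with YM155, against 13.3, 14.1 and 14.1 FPKM with DMSO, a 2.44-fold rise. MCMBP, which binds MCM subunits off chromatin, rose 1.53-fold. The phosphatase gene PPP1CB rose 1.97-fold, and RIF1, which directs this phosphatase against the action of CDC7, rose 1.75-fold. PPP1CA rose to 223 ± 11.5 FPKM with YM155, against 170.3 ± 4.21 FPKM with DMSO, but its call ended under rescaling to a common sum and its direction turned under quantile normalization (log2 fold change -0.11). MCM9, a helicase relative outside the ring, fell 1.85-fold, to 1.05 ± 0.103 FPKM with YM155, against 1.94 ± 0.0959 FPKM with DMSO, and lost its call under quantile normalization (limma adjusted p = 0.053). MCM8 fell 1.12-fold (limma adjusted p = 0.022), a call that ended without YM155 replicate 1 (limma adjusted p = 0.054), without DMSO replicate 2 (0.06) and without DMSO replicate 3 (0.063). GMNC, a relative of GMNN, was listed at 0 in all libraries.

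Of 14 genes listed under the destruction of CDC6, CDT1 and cyclin E, 7 rose and 5 fell, shares near the 43.6% and 41.0% of all tested genes. Among those that rose is SETD8, a target of a ligase of the list and not a part of one. The median log2 fold change was 0.10. Under upper-quartile, common-sum and quantile scaling the list had 4, 3 and 4 higher and 8 lower genes in each. FBXW7, the receptor that marks cyclin E for the proteasome, stood at 32.7, 33.6 and 35.5 FPKM with YM155, against 8.01, 6.58 and 7.09 FPKM with DMSO, a 4.70-fold rise (log2 fold change 2.09 ± 0.07 SE, limma adjusted p = 1.3e-08). SKP2, the receptor that marks phosphorylated CDT1 and the CDK inhibitor p27, stood at 3.15, 2.88 and 4.09 FPKM with YM155, against 19.4, 20.1 and 18.1 FPKM with DMSO, a 5.70-fold fall (log2 fold change -2.22 ± 0.10 SE, limma adjusted p = 6.7e-08). These 2 receptors of the same ligase family were the extremes of the list, in opposite directions. DTL, which brings CDT1 to the CUL4 ligase in S phase, fell 2.20-fold, CCNF, which marks CDC6, fell 1.92-fold, and the ligase subunit RBX1 fell 1.42-fold. HUWE1, a ligase for CDC6, rose 1.91-fold, and SETD8 (also KMT5A), whose histone methyltransferase product is marked by the same CUL4 ligase as CDT1, rose 2.12-fold. CDC20 rose 1.33-fold as deposited, but had a log2 fold change of 0.09 under rescaling to a common sum and -0.01 under quantile normalization, where its call ended. SKP1 did not pass, at 93.01 ± 4.01 FPKM with YM155 and 89.1 ± 2.21 FPKM with DMSO, but counted as lower under these 3 scalings (log2 fold changes -0.19, -0.26 and -0.37).

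**Figure D5:**
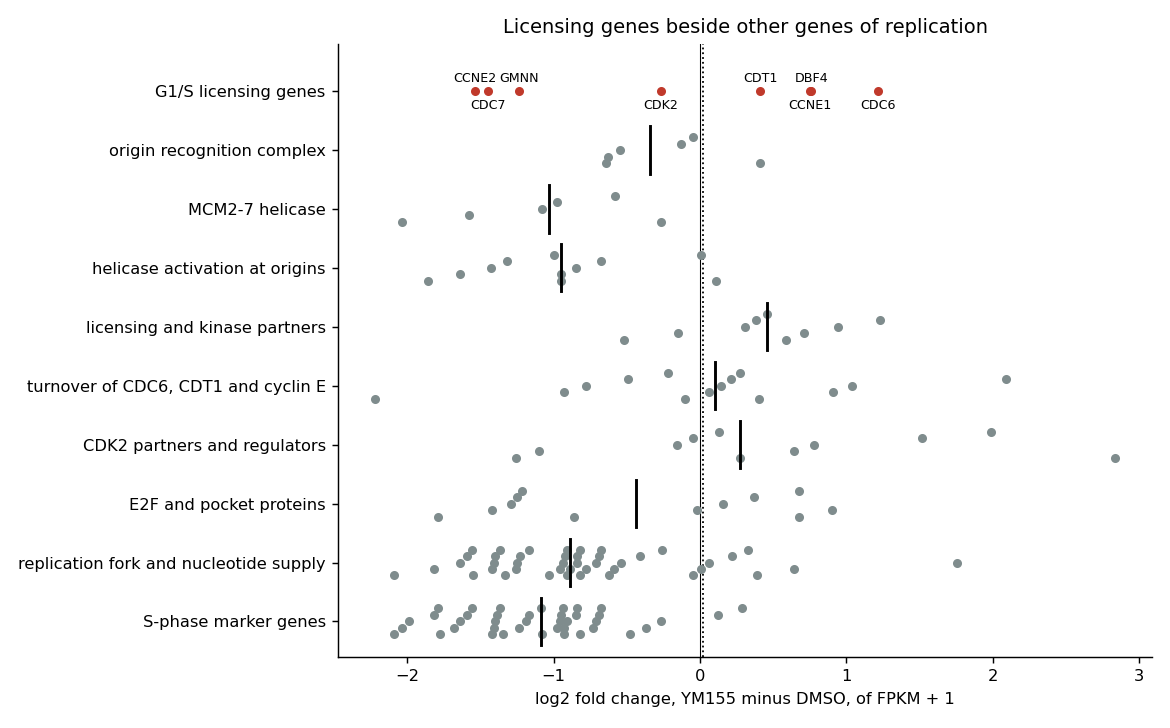
Log2 fold change, YM155 minus DMSO, of FPKM + 1 (horizontal axis) of the 8 G1/S licensing genes (red, named) and of the tested genes of 9 related lists (grey points, with the list's median as a black bar). The dotted line is the median of all tested genes at 0.02, and the medians of MCM2-7, helicase activation, fork and S-phase lists lie between -1.09 and -0.89.

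Partners and regulators of CDK2 rose in 6 of 11 tested cases and fell in 3, beside 43.6% and 41.0% of all tested genes. Their median log2 fold change was 0.27, from a list of 13, and 5 fell under rescaling to a common sum. CDKN1A, which encodes the CDK2 inhibitor p21, had 67.7, 70.2 and 64.9 FPKM with YM155, against 8.52, 8.50 and 8.68 FPKM with DMSO, 7.89-fold higher. WEE1, a kinase that inhibits CDK2 by phosphorylation, rose 4.11-fold. CDK7 and CCNH, parts of the kinase that activates CDK2, rose 2.93-fold and 1.74-fold. CDC25A, the phosphatase that relieves the inhibition of CDK2, fell 3.08-fold, to 1.97 ± 0.314 FPKM with YM155, against 6.07 ± 0.250 FPKM with DMSO. CCNA2, the S-phase cyclin that takes over CDK2 from cyclin E, fell 2.29-fold, the direction of CCNE2 and not of CCNE1. CKS2 fell 1.12-fold (limma adjusted p = 0.02), a call that ended without YM155 replicate 1 (limma adjusted p = 0.052) and without DMSO replicate 1 (0.072). CDKN1B, encoding p27, did not pass, at 16.1 ± 0.592 FPKM with YM155 and 16.8 ± 1.90 FPKM with DMSO, but counted as lower under upper-quartile, common-sum and quantile scaling (log2 fold changes -0.29, -0.36 and -0.31). CCNA1 was listed at 0 in all libraries, and SPDYA was under the filter.

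Of 12 tested E2F and pocket protein genes, 5 rose and 6 fell, shares near the 43.6% and 41.0% of all tested genes, with a median log2 fold change of -0.44, and 3 rose under rescaling to a common sum. E2F7 rose 2.08-fold, E2F4 1.62-fold, RB1 1.67-fold and E2F6 1.32-fold, the last losing its call under rescaling to a common sum. E2F8 fell 6.86-fold, TFDP2 3.32-fold, RBL2 2.86-fold and TFDP1, the most abundant dimer partner of E2F here, 2.43-fold, to 31.6 ± 0.360 FPKM with YM155, against 76.7 ± 3.82 FPKM with DMSO. E2F2 was under the filter, at 0.149 ± 0.0301 FPKM with YM155 and 1.11 ± 0.146 FPKM with DMSO, and E2F5 did not pass, though it counted as lower under upper-quartile, common-sum and quantile scaling (-0.26, -0.32 and -0.25).

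Genes that copy DNA were read last. Of 43 genes of the replication fork and nucleotide supply, 35 fell and 5 rose, beside 41.0% and 43.6% of all tested genes. Their median log2 fold change was -0.89. UHRF1, which couples replication to DNA methylation, fell 5.66-fold, TYMS 3.17-fold and the sliding clamp gene PCNA 2.68-fold. POLD4, the small subunit of polymerase delta, rose 3.44-fold, to 157 ± 10.5 FPKM with YM155, against 45.6 ± 3.65 FPKM with DMSO, and RNASEH2C rose 1.59-fold. RFC1 and POLE4 also rose as deposited, by log2 fold changes of 0.22 and 0.39, but both calls ended under upper-quartile, common-sum and quantile scaling, where RFC1 was at -0.02, -0.09 and -0.10. POLE3 did not pass, but counted as lower under the same scalings (-0.30, -0.37 and -0.47). Of 40 S-phase marker genes, 38 fell and 1, USP1, rose, beside the same shares of all tested genes. This list is in common use, and CDC6, GMNN and CCNE2 were left out of it here. The call of USP1 ended under the same 3 scalings. UNG fell 3.63-fold, and SLBP did not pass, but counted as lower under common-sum and quantile scaling (-0.20 and -0.25) and as higher under median-of-ratios scaling and without YM155 replicate 3 (0.16 in both). CDC6 was thus a marker of S phase that was higher with YM155, while GMNN and CCNE2, from the same marker list, fell with it. Over the 129 distinct genes tested in these 9 lists, which share some genes such as PCNA, 32 rose, 84 fell and 13 did not pass, with the 8 members left out. Again 43.6% rose and 41.0% fell among all tested genes.

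The tested genes whose profile over the 6 libraries lay nearest to each selected gene were named by Euclidean distance between log2(FPKM + 1) values less their DMSO mean. For CDC6 they were KIF21A (distance 0.0824), WNK1 (0.0846) and SRCAP (0.0854). For CDT1 they were NDUFAF2 (0.0645), ABHD17B (0.0673) and ECE2 (0.0740), and for CCNE1 they were PSTK (0.0621), SF3B4 (0.0655) and YTHDF1 (0.0736). None of these 9 genes is in the replication lists. That says little, since the lists hold 129 of the 12035 tested genes and 84 of those fell. The distances also use the values that selected CDC6, CDT1 and CCNE1, so their nearest genes were higher too. KIF21A, for example, stood at 20.98, 22.6 and 22.2 FPKM with YM155, against 8.86, 9.01 and 8.72 FPKM with DMSO, a lower level than CDC6 with the same log2 fold change of 1.22.

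The genes next to the selected ones in the RefSeq table were also read. On either side of CDC6, WIPF2 rose (log2 fold change 1.74 ± 0.05 SE, limma adjusted p = 7.1e-09) and RARA rose (1.40 ± 0.07 SE, limma adjusted p = 1.1e-07), both by more than CDC6 at 1.22. Beside CDT1, PIEZO1 rose (1.10 ± 0.05 SE, limma adjusted p = 7.1e-08) and APRT fell (-0.46 ± 0.06 SE, limma adjusted p = 4.3e-05). Among all tested genes 43.6% rose and 41.0% fell, so a rise beside a selected gene is common. Whether neighbours moved together with these genes was not tested. The neighbours of CCNE1 are LOC107985345 and PPIAP58, for which no value was read. Of the 8 genes, 6 overlap no other RefSeq gene. CCNE2 overlaps INTS8, NDUFAF6 and LOC100128548, and CDC7 overlaps LOC102723436, and since it is not stated whether strand was used in counting, their levels are uncertain to that degree. INTS8 fell to 19.3 ± 0.0785 FPKM with YM155, against 26.2 ± 0.436 FPKM with DMSO (log2 fold change -0.42 ± 0.04 SE, limma adjusted p = 1.5e-05), and NDUFAF6 was at 7.22 ± 0.599 FPKM with YM155 and 6.55 ± 0.583 FPKM with DMSO (limma adjusted p = 0.18). The log2 fold change of CCNE2 itself was -1.54. No value was read for LOC100128548 or LOC102723436, and the part of overlap in these levels was not tested.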

How the data were processed

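The 8 genes and the lists set beside them were chosen with earlier results of these data known. The authors deposited FPKM values per gene and library for 26255 gene symbols. Per the submitters' processing notes, SAMtools 1.2, Cuffdiff, Cufflinks 2.2.1, Bowtie2 2.3.5.1 and TopHat2 2.1.1 were used with build hg19. Their settings, the annotation, read totals and use of strand were not given in the sources used here. Per the labels' protocols, a column kit and a stranded mRNA library kit were used. FPKM values hold no counts, so no count test was run.

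Groups and replicate numbers came from the labels. Genes with at least 1 FPKM in at least 3 of 6 libraries (12035) were tested on log2(FPKM + 1) with limma 3.58.1 in R 4.3.3 (lmFit, eBayes with trend, two-sided, Benjamini-Hochberg over all tested genes, threshold 0.05), without a replicate block. The procedure was tested on simulated data with few changed genes, as many raised as lowered. That simulation held no scaling difference between groups, so it does not bear on how calls depend on scaling. Folds are ratios of mean FPKM, and log2 fold changes understate scarce genes. The ratio of CDC7 to DBF4 was tested with SciPy 1.17.1. No list was given a set test.

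Genes were named by a rule: the members, every measured gene of lists of at most 6, in longer lists up to 4 per direction with the lowest adjusted p and the most abundant one that did not pass, the 3 nearest profiles and the neighbours of CDC6, CDT1 and CCNE1. Some genes that the rule took are not reported here. RIF1, DBF4B, E2F2, the genes that overlap members and genes listed at 0 or under the filter fall outside it and were added after their values were seen. RefSeq sequences and neighbours are of GRCh38.p14, and no hg19 coordinates are given. Alternatives were other pseudocounts, filters, scalings, eBayes settings, array weights, thresholds, a replicate block and leaving out each library.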

Additional observations from a re-analysis of the deposited data

How the results depend on the processing

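Of 543 alternative values of 32 results, 498 kept the result (for a tested gene its direction and call, for a count within 1.5 times, for an untested value within the spread between replicates), 45 moved past that, and none reversed. Counts could not reverse by this measure, nor could fold changes under another threshold or eBayes setting, which leave them as they are. Genes outside these results, such as PPP1CA and RFC1, did change direction under some scalings. GMNN, CCNE2, CDK2, CDC7 and DBF4 kept direction and call in every alternative that tested them. A mean FPKM of at least 5 left CCNE2 and CDC7 out and called 2922 genes lower. That filter, which tests fewer genes, gave 5 lower genes of helicase activation, 1 of the licensing and kinase partners and 3 of the E2F genes. Upper-quartile scaling gave log2 fold changes of 0.97 for CDC6, 0.17 for CDT1 and 0.52 for CCNE1, rescaling to a common sum 0.90, 0.10 and 0.46, and quantile normalization 0.90, 0.18 and 0.65. All genes split into 4193 higher and 6119 lower calls (40.7% higher) under upper-quartile scaling, and 3830 and 6422 (37.4%) under the common sum, against 5251 and 4940 (51.5%) as deposited. Of origin recognition genes, 5 were lower under each of these scalings and 0 higher under the common sum. Turnover genes had 4, 3 and 4 higher and 8, 8 and 8 lower under upper-quartile, common-sum and quantile scaling, fork genes 2, 2 and 3 higher, and S-phase markers 0 higher in each. The common sum also gave 4 higher partners, 5 lower CDK2 partners and 3 higher E2F genes, and quantile normalization 1 higher helicase activation gene. Median-of-ratios scaling gave 1 lower partner and 2 higher S-phase markers, and a threshold of 0.01 gave 1 lower partner and 4 higher turnover genes. With 1 added to each FPKM, log2 ratio differences were -2.21 for CDC7 to DBF4, 1.65 for CDT1 to GMNN and 2.29 for CCNE1 to CCNE2. Leaving out single libraries gave 1 to 2 lower partners and 1 to 2 higher S-phase markers, with 2 reached without YM155 replicate 3. Other than for the filter, the cause of these shifts was not tested.

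Same-numbered libraries did not deviate together (correlations -0.071, -0.148 and -0.125), so the replicate numbers were not taken as pairing samples. A replicate block gave 5147 higher and 4861 lower genes and 1 lower licensing partner, MCM8 losing its call (limma adjusted p = 0.063), and no member changed its call under it. Depth is not recorded, and YM155 libraries were the shallower by the estimate from low values, which limits CCNE2 and CDC7 most.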
